A study of Rattus norvegicus with 47 samples.

Results

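Fos, Fosb and Fosl2 encode FOS subunits, and Jun, Junb and Jund encode JUN subunits, of the transcription factor AP-1. These 6 genes, of 15319 listed in each table, were taken by matching numeric gene identifiers to rat symbols (Fos 314322, Fosb 100360880, Fosl2 25446, Jun 24516, Junb 24517, Jund 24518). They were chosen by family name with earlier results of these libraries in view, and are treated as selected on their counts and fitted differences in these samples. The levels, fitted differences and p-values that follow therefore describe these genes and are not independent evidence. All 6 passed the filter on low counts in the fits that hold all libraries of a region, also where Fosb was near 0. The remaining family gene in the tables, Fosl1 (25445), was not in the set and is given for comparison.

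Sprague-Dawley rats inhaled air passed over PCB52, a polychlorinated biphenyl, and punches of their striatum and cerebellum were sequenced beside those of sham animals. Exposure was nose-only, 4 h a day for 28 days, and animals were assigned at random at 39 days of age (males) or 42 days of age (females). Striatum had 6 PCB52 males, 4 sham males, 6 PCB52 females and 6 sham females, and cerebellum had 5 PCB52 males, 5 sham males, 6 PCB52 females and 6 sham females. The inhaled dose, the handling of sham animals and the time from the last exposure to tissue collection are unknown here.

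AP-1 binds DNA as a dimer: FOS proteins pair with JUN proteins, and JUN proteins also pair with each other. Fos, Fosb and Junb are immediate early genes, whose transcripts appear within minutes of a stimulus and decay quickly, while Jund is expressed more steadily. In the striatum, Fos and Fosb are widely used as readouts of dopamine and drug responses, and in the cerebellum Fos marks stimulated granule cells.

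Totals ran between 5684508 and 8914523 counts per library in striatum and between 6524400 and 15865054 in cerebellum. Levels are given as CPM, a gene's share of a library's counts, with library sizes scaled by TMM, a correction for differences in composition. The 10 striatal projection neuron markers summed to between 5430 and 13482 CPM in striatal and between 381 and 656 CPM in cerebellar libraries. The 8 granule cell markers summed to between 81.1 and 490 CPM in striatal and between 4690 and 7143 CPM in cerebellar libraries, so the markers followed the labelled region. In 6 libraries the mean log2 level of a marker list of another tissue exceeded the median of the region by over 2. These were striatum PCB52 female 14 and PCB52 male 19 (cortical neurons), PCB52 female 22 (granule cells), PCB52 female 20 (choroid plexus) and sham female 12 (olfactory bulb), and cerebellum sham male 1 (choroid plexus). In 5 libraries the female transcript Xist and the Y-linked Eif2s3y both exceeded 3 CPM: striatum sham male 3, and cerebellum sham males 9 and 11 and sham females 8 and 10. In whole tissue, fewer cells of a type and less RNA per cell cannot be told apart.

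Start-site windows of Fosb, Junb and Jund are shown because Fosb and Junb had the largest differences between the regions among the 6 genes and Jund had none that was called. Each runs from 250 bases before to 50 bases after the annotated start of the gene (RefSeq, build GRCr8), and 4 of the 6 genes had a window, also Fosl2. Capitals mark motifs found on either strand:
Fosb, chr1:88089135-88089434, minus strand: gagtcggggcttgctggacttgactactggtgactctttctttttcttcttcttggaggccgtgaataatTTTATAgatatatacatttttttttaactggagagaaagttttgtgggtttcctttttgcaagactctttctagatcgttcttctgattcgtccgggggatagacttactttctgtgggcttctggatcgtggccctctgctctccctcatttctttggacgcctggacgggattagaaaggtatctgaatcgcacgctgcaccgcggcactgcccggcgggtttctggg
Junb, chr19:40080876-40081175, plus strand: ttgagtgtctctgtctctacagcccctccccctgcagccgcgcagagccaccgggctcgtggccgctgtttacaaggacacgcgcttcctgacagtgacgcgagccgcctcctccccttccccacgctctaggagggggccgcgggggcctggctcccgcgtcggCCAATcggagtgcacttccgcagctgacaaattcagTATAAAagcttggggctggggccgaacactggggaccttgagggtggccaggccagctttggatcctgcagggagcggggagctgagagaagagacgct
Jund, chr16:18769722-18770021, minus strand: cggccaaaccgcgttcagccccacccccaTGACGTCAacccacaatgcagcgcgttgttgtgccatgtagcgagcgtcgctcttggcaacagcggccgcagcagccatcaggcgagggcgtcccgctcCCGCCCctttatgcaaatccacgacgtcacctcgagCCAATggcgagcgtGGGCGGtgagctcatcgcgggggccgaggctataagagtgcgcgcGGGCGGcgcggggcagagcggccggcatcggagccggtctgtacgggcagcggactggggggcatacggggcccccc
The motifs searched were the cyclic AMP response element (CRE, TGACGTCA), the AP-1 site (TGANTCA), the CArG box by its name, the TATA box (TATAAA), the motif known as the CCAAT box and the GC box (GGGCGG). Both strands were searched, and none of the matches overlap. The Jund window held 1 CRE at position -221 from the start, a CCAAT box at -86 and 3 GC boxes. A CRE was present in 1.83% of all 33469 windows of this length. A CCAAT box was present in 37.5% and a GC box in 33.1% of all windows. The Junb window held a TATA box at -49 and a CCAAT box at -85, and 14.2% of all windows held a TATA box. The Fosb window held only a TATA box, on the opposite strand at -180, and none of the 3 windows held an AP-1 site (7.33% of all) or a CArG box (1.64%).

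In sham animals Fosb and Junb were higher in striatum, while Fos and Jun were lower there. Fosb averaged 15.3 CPM in striatum and 2.00 CPM in cerebellum, a log2 fold change (the base-2 log of striatum over cerebellum) of 2.94 ± 0.23 (standard error, SE; adjusted p = 9.8e-15). Junb averaged 114.6 CPM in striatum and 26.2 CPM in cerebellum (log2 fold change 2.12 ± 0.17, adjusted p = 3.13e-14). Jun, a target of JNK kinases, averaged 59.1 CPM in striatum and 151 CPM in cerebellum (-1.35 ± 0.09, adjusted p = 1.57e-16). Fos averaged 17.02 CPM in striatum and 28.2 CPM in cerebellum (-0.74 ± 0.28, adjusted p = 0.0199).

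These means cover 10 sham striata and 11 sham cerebella, and the p-values come from edgeR's quasi-likelihood F-test across 12446 genes with Benjamini-Hochberg adjustment, and a gene was called at an adjusted p below 0.05. The fit called 69.8% of all genes between the regions, 34.3% higher and 35.5% lower in striatum. The 4 of 6 members called (2 higher, 2 lower) are near that share of all genes. Fosl2 (0.41 ± 0.21, adjusted p = 0.0797) and Jund (-0.12 ± 0.12, adjusted p = 0.364) were not called by edgeR. Fosl2 was called by DESeq2 (adjusted p = 0.0421) and by limma voom (adjusted p = 0.0435). Without striatum sham male 9 edgeR also called Fosl2 (0.48, adjusted p = 0.0448), and without striatum sham male 3 its value was 0.26. Fos lost its call without libraries holding transcripts of both sexes (-0.75, adjusted p = 0.0574), without cerebellum sham male 3 (-0.63, adjusted p = 0.055) or without cerebellum sham female 6 (-0.59, adjusted p = 0.0601). Fosl1, outside the set, was lower in striatum (-0.47 ± 0.13, adjusted p = 0.00162).

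The same order held within pairs of regions that the titles tie to 1 animal. In sham animals 3, 8, 9, 10 and 11, 1 library of the pair held transcripts of both sexes. That library may hold RNA of another animal. Among 21 animals with both regions, Fosb and Junb were higher in striatum in 21 and Jun in 0. In the 10 sham animals the lowest, median and highest Fosb were 10.3, 15.4 and 22.4 CPM in striatum, against 0.434, 1.89 and 3.57 CPM in cerebellum. Junb was 76.4, 113.2 and 195 CPM in striatum, against 14.9, 26.3 and 43.9 CPM in cerebellum. Jun was 46.3, 60.5 and 70.1 CPM in striatum, against 125 to 165 CPM in cerebellum (median 151). The regions did not overlap for these 3 genes, in sham animals or in the 11 PCB52 animals. The share of all genes without overlap was not counted, and 69.8% of all genes were called between the regions. Whether the separation is particular to these genes was therefore not tested. The median fold of striatum over cerebellum within an animal was 11.8 for Fosb (20 animals above 0 in cerebellum), 3.801 for Junb and 0.412 for Jun. Fos was 6.85, 15.1 and 40.3 CPM in sham striatum, against 6.50, 29.0 and 58.4 CPM in sham cerebellum. The regions overlapped for Fos, which was higher in striatum in 6 of 21 animals, for Fosl2 (18 of 21) and for Jund (6 of 21). Jund was higher in striatum in 1 of 11 PCB52 animals and in 5 of 10 sham animals, and Fos in 4 of 11 PCB52 animals and in 2 of 10 sham animals.

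**Figure D1:**
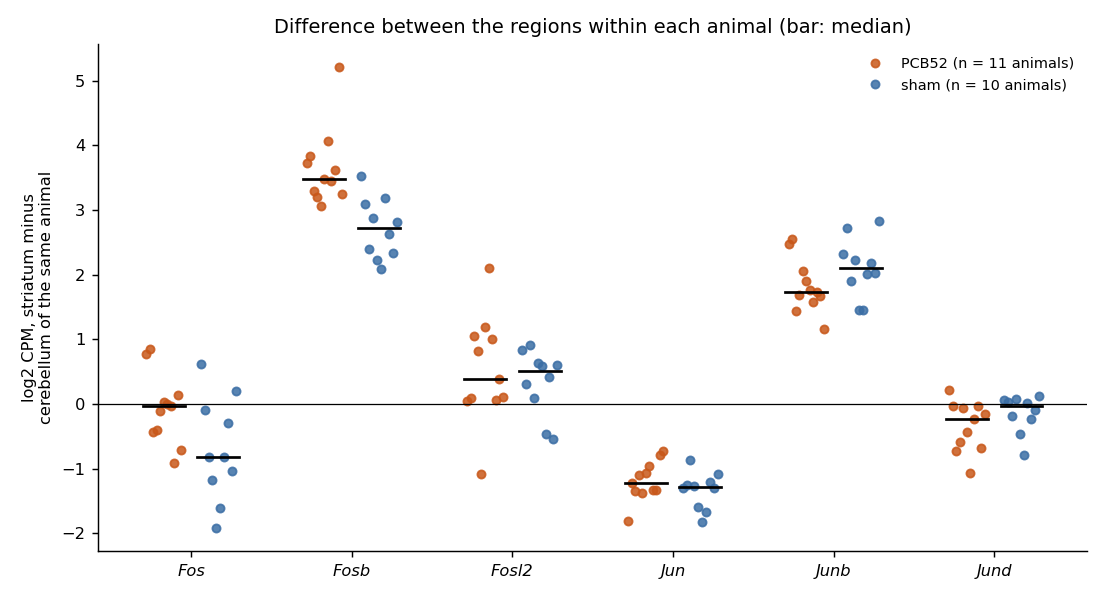
Each point is 1 animal by the titles, with PCB52 animals in orange left of sham animals in blue. The vertical axis is the log2 difference in CPM (0.5 added to each) between striatum and cerebellum, and the bar is the median. All 21 animals lie above 0 for Fosb and Junb and below 0 for Jun.

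Genes around AP-1 differed between the regions in both directions. Lists of genes around AP-1 were chosen with earlier results known and are described by counts, against the same 34.3% higher and 35.5% lower over all genes. Of 36 early response genes outside the families, 21 were higher and 8 lower in striatum, with a median log2 fold change of 0.62, against -0.03 over all genes. The 3 of lowest p were Egr3 (8.57 ± 0.36) and Egr2 (7.53 ± 0.41), zinc finger factors, and Arc (2.35 ± 0.13), a synaptic protein. Of 14 tested late neuronal genes under AP-1, 9 were higher and 3 lower. Penk (4.36 ± 0.15) and Pdyn (9.75 ± 0.34), which encode opioid peptide precursors and are also markers of striatal projection neurons, and the secreted factor Vgf (3.41 ± 0.20) led that list. In cerebellum Egr3, Egr2 and Pdyn were near 0 (0.133, 0.0380 and 0.270 CPM, against 55.7, 9.68 and 262 CPM in striatum), so their fold changes depend on the small count that edgeR adds. Adjusted p for these 6 genes lay between 5.96e-26 and 2.68e-18 (edgeR).

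The upstream and partner lists were mixed. Of 25 JNK and ERK kinases and phosphatases, 8 were higher and 11 lower in striatum, led by the kinase Rps6ka1 (-3.32 ± 0.12), the ERK phosphatase Dusp5 (-3.84 ± 0.17) and Map3k5 (-2.92 ± 0.16), a kinase above JNK. Of 14 factors acting on the Fos promoter, 3 were higher and 4 lower, led by Srf (1.13 ± 0.06), which binds the CArG box, Crtc2 (-0.71 ± 0.08), a CREB coactivator, and Elk3 (0.97 ± 0.12), a partner of SRF. Of 12 dimer partners, 4 were higher and 4 lower, among them Maf (-2.26 ± 0.17) and Atf4 (-1.24 ± 0.13). Of 13 regulators of FOS and JUN protein, 2 were higher and 4 lower, among them Cul4a (-0.42 ± 0.05) and Ddb1 (-0.25 ± 0.07), parts of a ubiquitin ligase. All genes named here were called in that comparison.

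**Figure D2:**
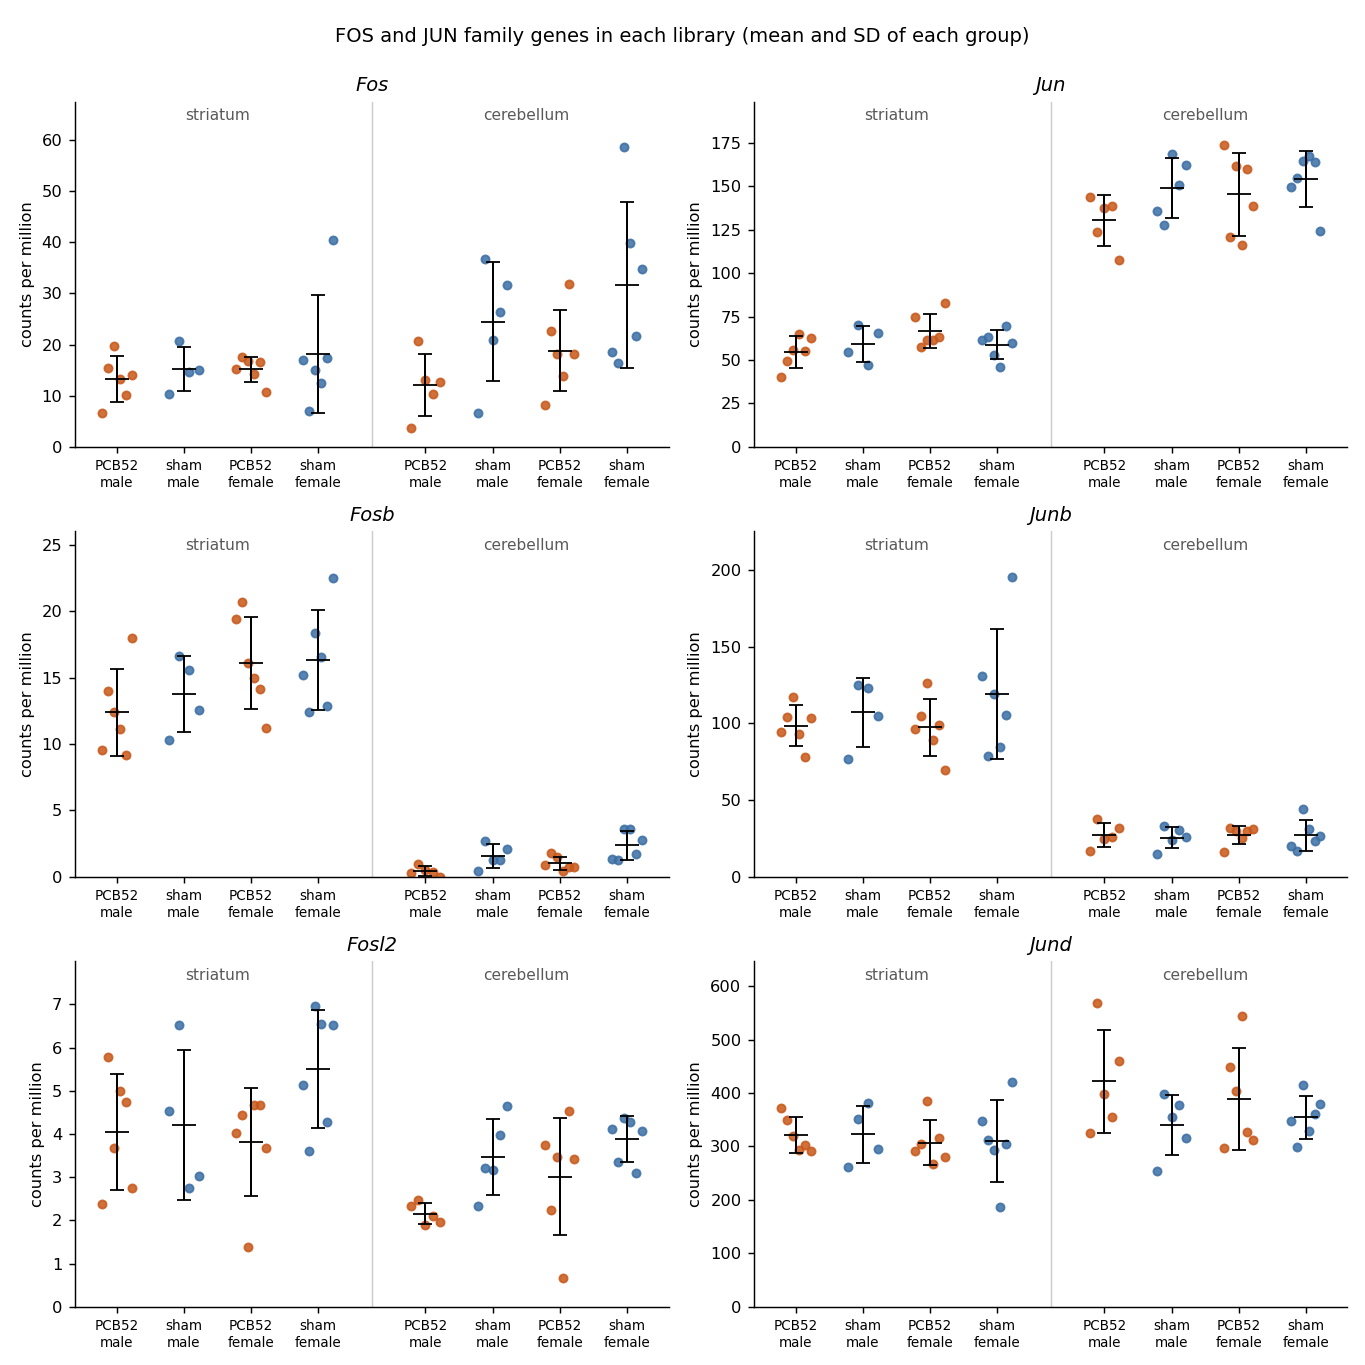
Each point is 1 library, in CPM on a linear axis from 0, for PCB52 (orange) and sham (blue) animals of each sex in striatum and cerebellum. Horizontal and vertical black lines are the mean and SD of the group. Cerebellar Fos and Fosb points of PCB52 groups lie mostly below those of sham groups of the same sex, with overlap, and striatal points overlap throughout.

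In the cerebellum the means of Fos, Fosb and Fosl2 were lower in PCB52 animals than in sham animals of both sexes, but none passed the test. The edgeR fit called 0 genes (0% of 11690 tested) between PCB52 and sham in males, in females or as the mean of both sexes. An unadjusted p below 0.05 was reached by 1673 genes in males, 369 in females and 1727 in the mean of both sexes, and DESeq2 called 1, 9 and 19. Among the members that p was reached by 3 in males, 1 in females and 3 in the mean of both sexes. In the mean of both sexes DESeq2 gave no adjusted p for Fos, Fosb, Fosl2 and Junb. Its 19 calls therefore say nothing of these genes.

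Fosb had the lowest p among the members, at rank 12 of 11690 in the mean of both sexes. Its values in PCB52 males were 0.260, 0.964, 0.544, 0.380 and 0 CPM, against 0.438, 2.73, 1.24, 1.28 and 2.12 CPM in sham males. In PCB52 females the lowest, median and highest were 0.406, 0.821 and 1.78 CPM, against 1.26, 2.22 and 3.62 CPM in sham females. Of the PCB52 libraries 10 of 11 lay below the sham median, yet the groups overlapped in both sexes. The share of all genes with such an order was not counted, here or for Fos and Fosl2 below.

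The Fosb log2 fold change (PCB52 over sham) was -1.51 ± 0.35 as the mean of both sexes, -1.82 ± 0.56 in males and -1.19 ± 0.43 in females (edgeR adjusted p = 0.326, 0.313 and 1.00). Sham males 9 and 11 and sham females 8 and 10 held transcripts of both sexes, which limits the values by sex here and for the genes below. Without sham female 8, which had the highest Fosb, the value in females was -1.04. The female minus male difference was 0.63 ± 0.71 (adjusted p = 0.774), 0.32 without sham male 3, 0.37 without PCB52 male 23 and 1.095 without PCB52 male 15. These values rest on 0 to 24 counts in PCB52 libraries and 3 to 27 counts in sham libraries. The 0 counts in PCB52 male 23 allow up to 0.443 CPM (3 counts of its total, counting error only). The lowest sham value was that of sham male 1, the library with choroid plexus markers. Without it the log2 fold change was -1.62.

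Fos showed the same order. PCB52 males had 3.77, 20.6, 13.1, 10.3 and 12.6 CPM, against 6.57, 36.8, 20.9, 26.4 and 31.7 CPM in sham males. PCB52 females had 8.24, 18.1 and 31.8 CPM (lowest, median, highest), against 16.4, 28.3 and 58.7 CPM in sham females. Again 10 of 11 PCB52 libraries lay below the sham median, and the ranges overlapped.

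The Fos log2 fold change was -0.89 ± 0.30 as the mean of both sexes, -1.03 ± 0.45 in males and -0.76 ± 0.40 in females (edgeR adjusted p = 0.326, 0.313 and 1.00). Without sham female 6 the value in females was -0.49. Fosl2, a FOS family protein that lacks the C-terminal activation domain of FOS, had 2.34, 2.48, 1.90, 2.09 and 1.97 CPM in PCB52 males, against 2.33, 3.21, 3.16, 3.97 and 4.66 CPM in sham males. In females it had 0.677, 3.44 and 4.52 CPM with PCB52, against 3.10, 4.08 and 4.38 CPM in sham animals. The Fosl2 log2 fold change was -0.52 ± 0.20 (males -0.68 ± 0.30, females -0.36 ± 0.26; edgeR adjusted p = 0.326, 0.313 and 1.00), and 10 of 11 PCB52 libraries lay below the sham median. In females it was -0.16 without PCB52 female 20, whose 0.677 CPM was the lowest, and -0.18 with limma voom. In males it was -0.42 without the libraries with transcripts of both sexes.

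Junb, usually induced together with Fos, averaged 27.3 CPM in PCB52 and 26.3 CPM in sham cerebellum, a log2 fold change of 0.05 ± 0.18 with 95% limits of -0.29 and 0.40 (edgeR adjusted p = 0.858). Its sign turned without sham male 1 or PCB52 male 15 (-0.02 each). Jun averaged 138 CPM in PCB52 and 152 CPM in sham animals (-0.14 ± 0.08, adjusted p = 0.343). Jund averaged 404 CPM in PCB52 and 348 CPM in sham animals (0.22 ± 0.12, adjusted p = 0.326, and 0.31 ± 0.17 in males, adjusted p = 0.313). Without PCB52 male 15 the Jund value in males was 0.18, and limma voom gave 0.17 in males and 0.11 as the mean of both sexes. Fosl1 averaged 8.71 CPM in PCB52 and 9.29 CPM in sham animals (-0.09 ± 0.12, adjusted p = 0.607). For all 6 members the log2 median was -0.33, against 0.00 over all genes tested.

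For Jund, 4 of 11 PCB52 libraries exceeded every sham library, at 449, 544, 568.3 and 460.3 CPM (females 16 and 20, males 15 and 23), against a highest sham value of 414 CPM. The share of all genes with such an order was not counted, for Jund or for Jun below. The same 4 libraries had the highest mean log2 CPM of 74 ribosomal protein genes, between 9.15 and 9.81, against 7.56 to 8.51 in the other PCB52 libraries and 7.61 to 8.67 in sham libraries. They were also the 4 PCB52 libraries with Jun below every sham library, at 120.9, 116.1, 123.5 and 107.8 CPM (females 16 and 20, males 15 and 23). The lowest sham value of Jun was 124.5 CPM, and the other PCB52 libraries had 137 to 174 CPM. No fit left out these 4 libraries together, and their part in the PCB52 values was not tested. Granule cell markers summed to between 4690 and 7143 CPM in PCB52 and between 5066 and 7086 CPM in sham cerebellum, and Purkinje cell markers to between 5541 and 7496 CPM in PCB52 and between 6000 and 7374 CPM in sham cerebellum. The 5 astrocyte markers summed to between 1961 and 3347 CPM in PCB52 and between 2723 and 3396 CPM in sham cerebellum. The 5 oligodendrocyte markers summed to between 4428 and 12126 CPM in PCB52 and between 5302 and 13012 CPM in sham cerebellum. Of the 8 cortical excitatory neuron markers 7 were in the tables, and they summed to between 1106 and 1629 CPM in PCB52 and between 950 and 1296 CPM in sham cerebellum. Their mean log2 CPM was 3.06 to 4.68 in PCB52 and 3.26 to 3.64 in sham cerebellum, so few of them made most of the sum. In striatum they summed to between 27.7 and 488 CPM. The cerebellar sum is therefore not a measure of cortical neurons. The 7 choroid plexus markers summed to between 20.7 and 64.2 CPM in PCB52 and between 25.9 and 2414 CPM in sham cerebellum. The groups overlapped for each of these lists, and their part in the values was not tested.

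**Figure D3:**
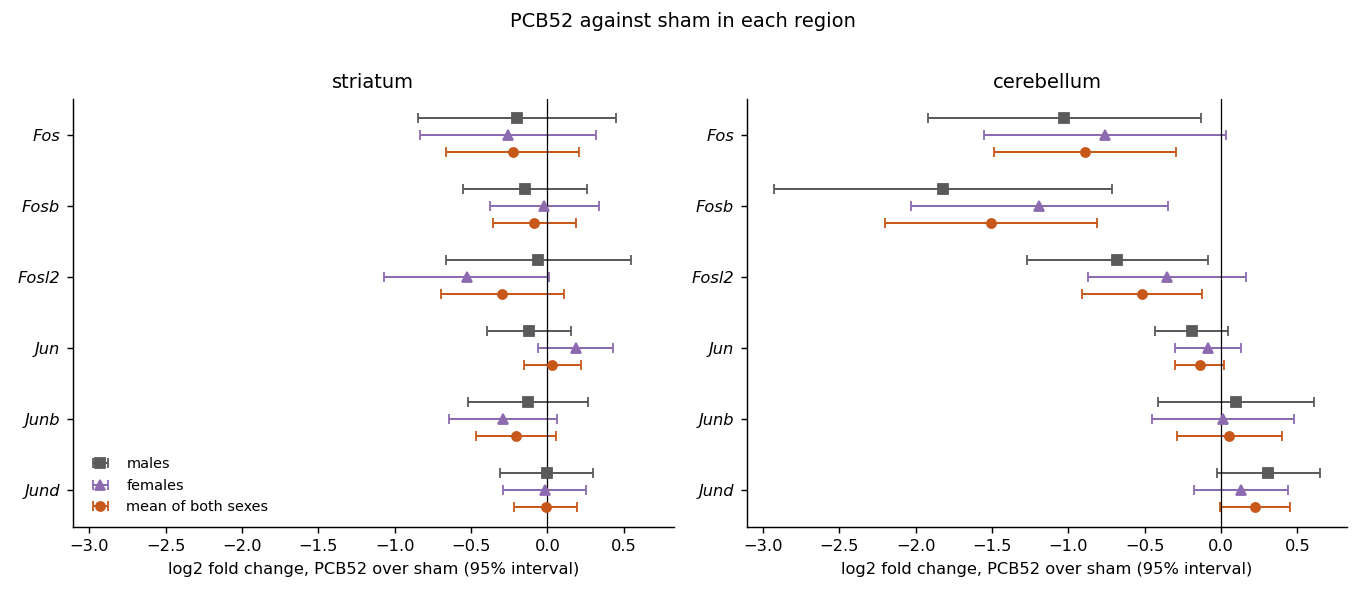
Points are log2 fold changes of PCB52 over sham from edgeR with 95% intervals, in males (squares), females (triangles) and as the mean of both sexes (circles). In cerebellum the intervals of the mean of both sexes lie below 0 for Fos, Fosb and Fosl2 and include 0 for Jun, Junb and Jund. In striatum all intervals include 0, and no gene passed the adjusted threshold in either region.

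The ratio of Fos to Junb within a library was examined after the values had been seen, and is given without a test. A ratio of counts does not depend on library size. In cerebellum it was 0.225, 0.547, 0.530, 0.397 and 0.395 in PCB52 males, against 0.437, 1.12, 0.869, 0.873 and 1.24 in sham males. It ran from 0.513 to 1.07 in PCB52 females (median 0.593), against 0.931 to 1.33 in sham females (median 1.13). In 10 of 11 PCB52 libraries the ratio was at most 0.719, and in 10 of 11 sham libraries it was at least 0.869. The exceptions were PCB52 female 22 and sham male 1. Fos was already seen lower with PCB52 and Junb near equal, so the lower ratio restates those values. How many other gene pairs separate as well was not counted.

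In striatum the same ratio averaged 0.145 ± 0.027 in 12 PCB52 libraries and 0.143 ± 0.032 in 10 sham libraries (SD), and the groups overlapped. Counts per gene depend on transcript length, so a ratio near 1 does not mean equal numbers of molecules.

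**Figure D4:**
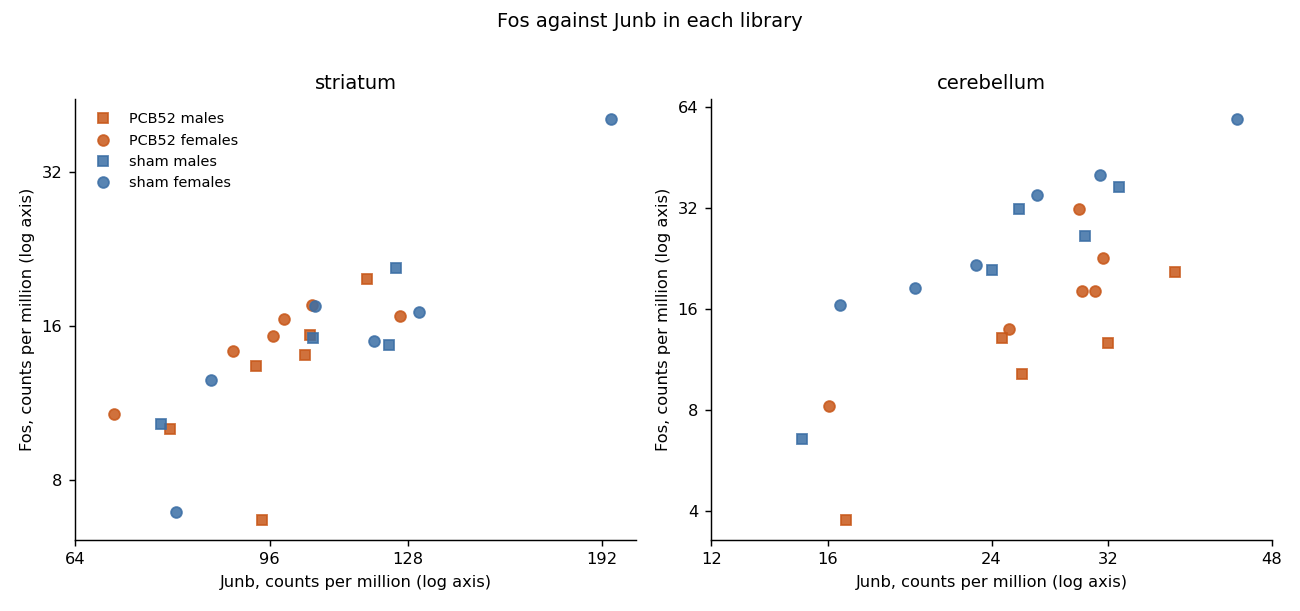
Fos against Junb in CPM, both on log axes, with 1 point per library (PCB52 orange, sham blue, males squares, females circles). In cerebellum the PCB52 points other than female 22 lie below the sham points other than male 1 at a like Junb level. In striatum PCB52 and sham points share 1 band.

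In the striatum the members had small fitted differences between PCB52 and sham. Over 12 PCB52 and 10 sham libraries, the log2 fold changes as the mean of both sexes were -0.23 ± 0.22 for Fos, -0.08 ± 0.14 for Fosb, -0.29 ± 0.21 for Fosl2, -0.21 ± 0.13 for Junb, 0.03 ± 0.09 for Jun and -0.01 ± 0.10 for Jund. None was called, as none of the 12142 genes tested was (0%; edgeR adjusted p of the members 0.774 to 0.981). In this comparison 704 genes reached an unadjusted p below 0.05, and DESeq2 also called 0. In females alone 1633 genes reached that p and in males alone 109. There edgeR called 0 genes in each sex, and DESeq2 called 23 in females and 1 in males.

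Striatal Fos ran from 6.68 to 19.8 CPM in PCB52 animals (median 14.8) and from 6.91 to 40.5 CPM in sham animals (median 15.015). Striatal Fosb ran from 9.15 to 20.7 CPM in PCB52 and from 10.3 to 22.5 CPM in sham animals, and Junb from 69.4 to 126 CPM in PCB52 and from 76.5 to 196 CPM in sham animals. The groups overlapped for all 3 genes. The 95% limits of the striatal log2 fold change were -0.66 and 0.20 for Fos and -0.35 and 0.19 for Fosb. The Fos value fitted in cerebellum (-0.89) lay outside the striatal limits. Its own limits (-1.49 and -0.30) overlapped them, so these intervals do not separate the regions for Fos. In females Fosl2 had the lowest p of the 6 genes (-0.53 ± 0.28, adjusted p = 0.386), with 1.38, 4.23 and 4.68 CPM (lowest, median, highest) in PCB52 females, against 3.61, 5.83 and 6.95 CPM in sham females. Junb in females was -0.29 ± 0.18 (adjusted p = 0.436). Without sham female 12, the library with olfactory bulb markers, that Junb value was -0.09 and the Fos value of both sexes was -0.03.

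The PCB52 difference in striatum minus that in cerebellum was 1.40 ± 0.35 for Fosb (edgeR adjusted p = 0.268, rank 4 of 12446 by p) and 0.65 ± 0.39 for Fos (adjusted p = 0.319). None of the 12446 genes was called (0%), 2278 had an unadjusted p below 0.05, and DESeq2 called 3, not Fosb (adjusted p = 0.0542). In the libraries with transcripts of both sexes left out, the Fosb value was 1.37 (adjusted p = 0.44).

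No member was called between the sexes in either region. Between sham females and sham males edgeR called 4 genes in striatum (0.0329%) and 0 in cerebellum (0%), no member among them. In cerebellum Xist and Eif2s3y were thus not called either. There, sham males 9 and 11 and sham females 8 and 10 held transcripts of both sexes. That comparison therefore cannot tell whether the members differ between the sexes. In striatum, sham male 3 was such a library. An unadjusted p below 0.05 was reached by 123 genes in cerebellum, where DESeq2 also called 0. The largest fitted values were 0.59 ± 0.45 for cerebellar Fosb and 0.38 ± 0.31 for striatal Fosl2 (both adjusted p = 1.00). The Fosb value was 0.36 without sham male 1 and 0.90 without sham male 3, and the Fosl2 value was 0.23 without sham male 9 and 0.67 without sham male 3. The difference of the PCB52 effects between females and males was called for 0 genes in either region (0%), with 471 genes in striatum and 254 in cerebellum at an unadjusted p below 0.05, and DESeq2 called 0 and 4. It rests on the same sham groups, so the limit set by libraries with transcripts of both sexes holds for it too.

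Of the early response genes outside the families, 33 were tested between PCB52 and sham in cerebellum, and 0 were called, with 14 values above and 19 below 0 (median -0.03, all genes 0.00). The 3 of lowest p were nuclear receptors of 1 family: Nr4a2 (-0.93 ± 0.19), Nr4a3 (-1.33 ± 0.31) and Nr4a1 (-0.70 ± 0.19), each with an edgeR adjusted p of 0.326. Nr4a2 ran from 3.28 to 18.1 CPM in PCB52 (median 9.27) and from 11.2 to 25.2 CPM in sham cerebellum (median 17.4). The median of Arc was 37.7 CPM in PCB52 and 31.7 CPM in sham cerebellum. In striatum 36 were tested, with 9 values above and 27 below 0 (median -0.09, all genes 0.00) and 0 called. The other 5 lists also had 0 genes called in either region, with medians in cerebellum between -0.17 and -0.03.

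Within groups, libraries high in Fos were high in Junb. The correlation of their log2 CPM, with the mean of each group removed, was r = 0.93 in cerebellum (Spearman rho = 0.87, both adjusted p at most 0.00072, n = 22) and r = 0.84 in striatum (rho = 0.81, both adjusted p at most 0.00072, n = 22). P-values come from permutation tests within groups, adjusted over 36 relations. Without the 2 libraries farthest from the median of Fos, r was 0.91 in cerebellum and 0.70 in striatum. Without the libraries with markers of another tissue it was 0.92 and 0.75.

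Fosb varied with both genes in both regions. In striatum it gave r = 0.68 with Fos (rho = 0.67) and r = 0.70 with Junb (rho = 0.72), with adjusted permutation p of 0.00814 and 0.0072. In cerebellum the values were r = 0.64 (rho = 0.68) and r = 0.57 (rho = 0.59), with adjusted permutation p of 0.0306 and 0.0464. Without the 2 libraries farthest from the median, Fos and Fosb in striatum gave r = 0.59 (adjusted p = 0.07), and the other 3 relations kept an adjusted p below 0.05. None of these 4 relations kept an adjusted p below 0.05 without the libraries with markers of another tissue (0.0744 to 0.174). Without those with transcripts of both sexes, the cerebellar relations of Fosb with Fos (r = 0.62, adjusted permutation p = 0.106) and with Junb (r = 0.57, adjusted permutation p = 0.125) did not pass.

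Junb was also related to Jund, in striatum (r = 0.72, rho = 0.67, adjusted permutation p = 0.0201) and in cerebellum (r = 0.65, rho = 0.64, adjusted permutation p = 0.00801). Without the libraries with markers of another tissue these adjusted p-values were 0.099 and 0.0744. Fos and Jund gave r = 0.58 in cerebellum (rho = 0.56, adjusted permutation p = 0.037), and r = 0.41 without the 2 libraries farthest from the median (adjusted p = 0.277), which did not pass. Without the libraries with transcripts of both sexes its adjusted p was 0.0555 (r = 0.63). Cerebellar Jund was highest in PCB52 females 16 and 20 and males 15 and 23, which also had the highest levels of ribosomal protein genes. No relation of cerebellar Jund, here or with Jun below, was computed without these libraries together, and their part was not tested.

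Jun gave values near 0 with Fos and Junb. Its correlation with Fos was r = 0.20 in striatum and -0.11 in cerebellum, and with Junb -0.06 and -0.21 (adjusted permutation p 0.53 to 0.838). In cerebellum Jun was related to Fosl2 (r = 0.57, rho = 0.57, adjusted permutation p = 0.0482 and 0.0706), a relation that gave r = 0.42 without the 2 farthest libraries (adjusted p = 0.258) and r = 0.58 without the libraries with transcripts of both sexes (adjusted p = 0.0792). Jun and Jund had a negative value there that did not pass (r = -0.52, rho = -0.49, adjusted permutation p = 0.102).

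**Figure D5:**
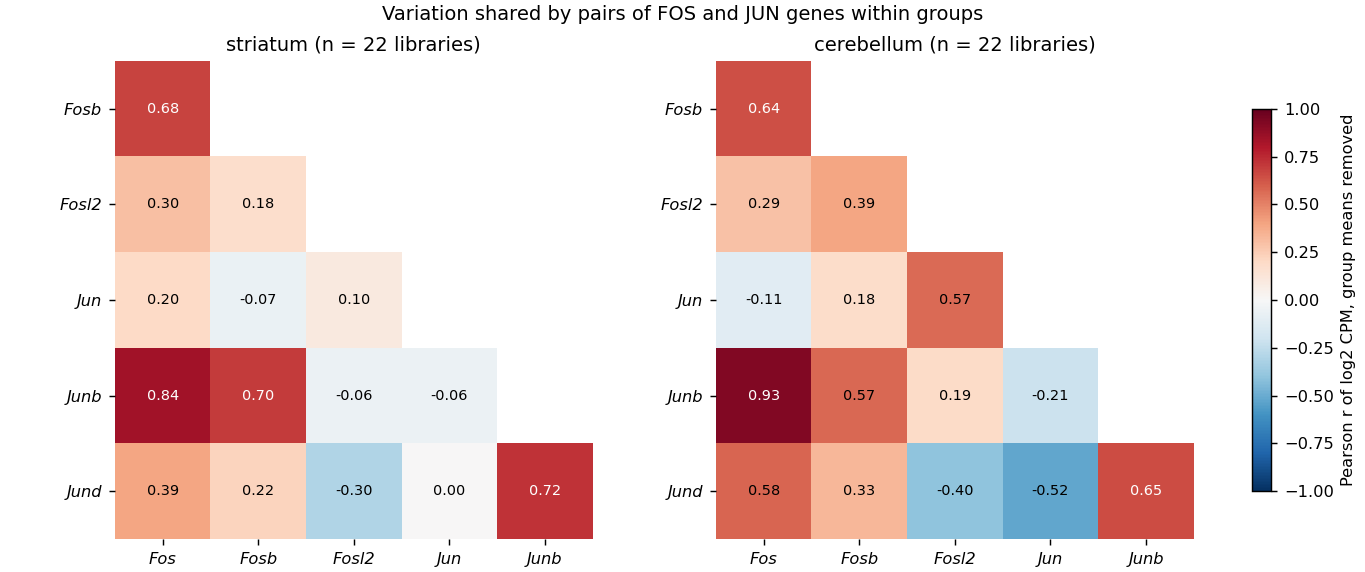
Each cell gives Pearson r of the log2 CPM of 2 genes over 22 libraries of a region, with the group means removed (red positive, blue negative). Fos with Junb is the strongest pair in both regions (0.84 and 0.93), and Jun has values near or below 0 with Junb.

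Between the regions of an animal, Fos gave r = 0.52 over 21 animals (rho = 0.49, adjusted permutation p = 0.0589), and r = 0.60 without the 2 animals farthest from the median. PCB52 male 13 had the lowest Fos of its group in both regions (6.68 CPM in striatum, 3.77 CPM in cerebellum), as did sham male 1 (10.3 CPM in striatum, 6.57 CPM in cerebellum). None of the 6 members passed the adjusted threshold between regions. For Fosb, r was 0.33 (adjusted permutation p = 0.339), and 0.65 without the 2 farthest animals (adjusted p = 0.0258).

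The genes most like each member within a region were named by Pearson r of the same within-group values over 22 libraries, as a description (12024 genes compared in striatum, 11567 in cerebellum). In striatum, the nearest to Fos were Arc (r = 0.88), Nr4a1 (0.85) and Egr2 (0.81), all early response genes. Junb was nearest to Arc (0.92), Egr4 (0.91) and Wnt7a (0.88), a secreted signal. Fosb was nearest to Egr2 (0.81), and Nr4a1 (0.76) and Cckbr (0.74), a neuropeptide receptor, were among its first 5.

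In cerebellum, Fos and Junb had the same first 3 genes: P4ha3, a collagen prolyl hydroxylase subunit (r = 0.87 with Fos and 0.90 with Junb), Pnrc1, a nuclear receptor coactivator (0.84 and 0.87), and Hey1, a Notch target (0.84 and 0.86). Jun was nearest to Tchp (0.91), Stim1 (0.85) and Stim2 (0.85), Stim1 and Stim2 being calcium sensors of the endoplasmic reticulum. In striatum Jun was nearest to the cation channel Trpc6 (0.85), with the adenylyl cyclase Adcy2 (0.70) among the first 5. The first 5 of Fosl2 held Atmin (0.76) and the G protein subunit Gnb4 (0.75) in striatum, and Egr1 (0.76) and the phospholipase Pla2g4a (0.75) in cerebellum. Those of cerebellar Fosb held the mitochondrial enzyme Got2 (0.78) and the peroxisomal enzyme Hsd17b4 (0.75).

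Jund had many genes of a like pattern. In cerebellum 2205 genes had r above 0.8 with Jund, led by Npdc1 (0.97) and the chaperone partner Cdc37 (0.96), with the corepressor Ctbp1 (0.96) among the first 5. The part in this number of the PCB52 libraries with the highest levels of Jund and of ribosomal protein genes (females 16 and 20, males 15 and 23) was not tested. In striatum 327 genes did, led by Ptov1 (0.95) and the oxygen sensor Egln2 (0.94). For the other members, in cerebellum, the number was 8 for Fos, 36 for Junb, 62 for Jun and 0 for Fosb and Fosl2. In striatum it was 3 for Fos, 31 for Junb, 1 each for Jun and Fosb and 0 for Fosl2. Of 60 places in these lists, 29 are not named here.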

How the data were processed

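Tissue punches of striatum and cerebellum gave poly(A)-captured or ribosomal RNA-depleted libraries, per the labels' protocols, without a statement of which was used where. FastQC, HISAT2 and the build rn6 are named in the submitters' processing notes. No source used here names the read counter or says whether it used strand. The deposited tables hold whole-number counts per gene, not normalized by the authors. Of 15319 gene identifiers, 15230 (99.4%) were matched to symbols of GRCr8, used for names and start-site windows only. An antisense transcript overlapping Fosb in that annotation could not be told apart from it.

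Of 47 samples, 44 had a column of counts, and 3 libraries of 2 sham males (male 5 in both regions, male 7 in striatum) were not used here. Each library is labelled as 1 animal's region, and no pair within a group agreed within sampling noise (chi-square over degrees of freedom at least 3.58). The 5 libraries with transcripts of both sexes, all labelled sham, cannot be taken as RNA of 1 animal each. No batch is labelled.

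Whole tables were fitted with edgeR 4.0.16 (R 4.3.3; TMM, default filter on low counts, robust quasi-likelihood F-test, two-sided, Benjamini-Hochberg), with 4 group means per region and 8 for the region comparison. Log2 CPM used a prior count of 2, and correlations 100000 permutations within groups. The fits were tested on simulated data. Alternatives were DESeq2 1.42.0, limma 3.58.1 voom with quality weights, RLE size factors, no filter, only the groups compared, leaving out each library, leaving out libraries with transcripts of both sexes and, chosen after seeing the data, those with markers of another tissue.

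Titles tie both regions to an animal. Deviations from group means correlated between an animal's regions at -0.451 to 0.566 (median 0.1), and a fit with the animal as replicate block was the paired alternative.

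The members, the 6 lists (127 entries, 3 genes in more than 1 list), the likeness rule (5 genes of highest r per member and region with at least 1 CPM) and the 3 genes of lowest p per list (some not reported here) were chosen with earlier results of these data known.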

Additional observations from a re-analysis of the deposited data

Results flagged for a closer look

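Among 48 groups of 1 member in 1 sex, treatment and region with at least 4 libraries, 2 held a library far from the others of its group by Dixon's criterion, where chance gives about 2.4 (1 in 20).

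Striatal Fos in sham female 12 was 40.5 CPM (40.4804), and the next highest of the 6 sham females was 17.5 CPM. This library also had the highest striatal Junb (196 CPM) and Fosb (22.5 CPM), and its olfactory bulb markers summed to 467 CPM, 3.82 log2 units of list mean above the striatal median. The part of those cells in its Fos value was not tested.

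Striatal Fosl2 in PCB52 female 18 was 1.38 CPM (1.37883), and the next lowest of the 6 PCB52 females was 3.69 CPM. Without it the female difference between PCB52 and sham was -0.36 on the log2 scale, and -0.53 with it.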

How the results depend on the processing

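Members of the FOS and JUN families were called by edgeR under no alternative in any comparison of PCB52 with sham. Counts of genes called that moved beyond 1.5 times were those of DESeq2, with 1 (males) and 23 (females) in striatum, 1 (males), 9 (females), 19 (mean of both sexes) and 4 (females minus males) in cerebellum, and 3 for the difference between regions, where edgeR called 0 each. Between sham females and males, 2 genes in striatum were called with only the groups compared (4 otherwise), and 4 in cerebellum without libraries holding transcripts of both sexes (0 otherwise). Leaving out each library gave 0 to 2 genes in cerebellum and 3 to 5 in striatum for that comparison, 8455 to 8748 between the regions, and 0 in the others.

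Signs turned for 3 values near 0 between PCB52 and sham, and the cause was not tested. Striatal Jun was -0.051 with limma voom and -0.014 to 0.079 without single libraries. Striatal Jund was 0.012 without libraries holding transcripts of both sexes, 0.091 without those with markers of another tissue and -0.066 to 0.042 without single libraries. Cerebellar Junb was -0.016 without sham male 1 and -0.018 to 0.152 without single libraries. With group means left in, cerebellar Fos and Jun gave r = 0.18, and Fosb and Junb (0.33, adjusted permutation p = 0.282) and Fos and Jund (0.24, 0.46) in cerebellum did not pass, while Jun and Jund there (-0.59, 0.0141) and Fos between regions (0.58, 0.0202) did.

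Cerebellar log2 fold changes without single libraries ran from -1.74 to -1.35 for Fosb, from -1.03 to -0.76 for Fos and from -0.58 to -0.42 for Fosl2, with adjusted p from 0.144 to 0.593. Their DESeq2 adjusted p in the mean of both sexes was not given by the tool, nor was that of Junb. With the animal as replicate block (paired fit), 8433 genes were called between regions (8690 without) and 0 for the PCB52 difference. Fosb was 2.995 between regions and 1.39 for the PCB52 difference (adjusted p = 0.311), and the block changed no other call of a member. Fosb in cerebellum is limited by its counts, 27 at most, and did not pass the filter where the male groups were fitted alone.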
